A study of Drosophila melanogaster with 2 samples.

Results

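The sites described here are 729 binding sites of the Drosophila transcription factor scratch (scrt) that lay in introns after the first, away from promoters. They came from the optimal peaks, which are the peaks of scrt-GFP chromatin immunoprecipitation that the authors kept by the irreproducible discovery rate (IDR). A peak was taken as a member from its position alone. Its summit lay more than 500 bp from every transcription start site (TSS) of a protein-coding gene and more than 1000 bp from every TSS of another gene. The summit was also in no exon, inside the body of a protein-coding gene, and not between the first and second exon of any transcript. Members made up 11.4% of the optimal peaks (95% Wilson interval 10.6 to 12.2). Of the others, 2845 lay within 500 bp of a coding TSS, 1444 in first introns, 804 in intergenic sequence, 400 near a non-coding TSS, 161 in exons and 24 in the body of a non-coding gene only. Such intervals, and the Poisson intervals on densities below, cover counting error only and not the spread between libraries. Read depth is unknown.

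The chromatin came from whole embryos of mixed sex at 4 to 24 h, of a transgenic line in which scrt carries GFP at its C terminus (scrt-GFP in the strain label, scrt-eGFP in the description). The 2 samples, biological replicates 3 and 4, are a single group with no other genotype or treatment, so no conditions could be compared. The description calls the libraries input controls, but their antibody field names scrt, and they are taken here as scrt immunoprecipitations. Peaks of all tissues of the embryo are summed in such chromatin, so the cells in which a site was bound cannot be told apart.

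Scratch is a zinc-finger protein of the Snail family, expressed mainly in the developing nervous system, and proteins of this family usually repress transcription from E-boxes of the type CAGGTG. Introns of Drosophila genes often hold enhancers, and the first intron, next to the promoter, is a common place for them. Later introns lie further from the promoter that drives the transcript.

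The sequences below show the words that were more frequent at the members' summits than in nearby DNA. Each line holds 41 bases of the Release 6 genome (dm6) from RefSeq around a 9-base word, 5′ to 3′ on the strand where the word reads in this direction, with the word in capitals. Among members on the chromosome arms from which sequence was taken, those of highest signal with a word were printed, 6 for each of the first 2 words and 3 for each of the others. The first group holds CAACAGGTG, the Snail-type E-box CAGGTG with CAA before it. These copies lay in introns of sr (an EGR-type zinc-finger factor of tendon cells), CG31145, CG12054 and the zinc-finger factor genes rn, chinmo and zfh1.
sr, chr3R:18112042-18112082, plus strand: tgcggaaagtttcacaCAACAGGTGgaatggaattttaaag
CG31145, chr3R:23666825-23666865, plus strand: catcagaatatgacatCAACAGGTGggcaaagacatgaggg
CG12054, chr3R:31223271-31223311, minus strand: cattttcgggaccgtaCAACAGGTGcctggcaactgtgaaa
rn, chr3R:7306639-7306679, minus strand: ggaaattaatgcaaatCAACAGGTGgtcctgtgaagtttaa
chinmo, chr2L:1694035-1694075, minus strand: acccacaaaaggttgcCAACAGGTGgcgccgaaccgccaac
zfh1, chr3R:30782036-30782076, plus strand: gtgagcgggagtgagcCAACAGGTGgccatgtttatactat

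The second group holds CAACAAGTG, which differs from the first word by G6A, with positions counted from 1 at the 5′ end of CAACAGGTG. This was the more frequent word.
CG42337, chr3L:21186661-21186701, minus strand: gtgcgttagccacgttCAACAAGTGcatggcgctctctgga
mamo, chrX:13890576-13890616, minus strand: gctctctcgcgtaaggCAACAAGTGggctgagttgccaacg
CG31145, chr3R:23664562-23664602, plus strand: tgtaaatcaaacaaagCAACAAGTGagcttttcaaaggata
CG46301, chr2L:14116153-14116193, minus strand: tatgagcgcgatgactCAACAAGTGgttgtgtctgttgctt
JhI-21, chr2L:12053548-12053588, minus strand: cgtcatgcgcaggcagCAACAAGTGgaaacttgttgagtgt
CG45002, chrX:17048152-17048192, minus strand: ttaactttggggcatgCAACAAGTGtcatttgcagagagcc

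The third group holds CAACAGTTG (G7T) or CAACAGGTT (G9T), the remaining words that were more frequent at the summits.
prage, chrX:1811318-1811358, minus strand: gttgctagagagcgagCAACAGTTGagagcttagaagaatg
hzg, chr3L:16001321-16001361, minus strand: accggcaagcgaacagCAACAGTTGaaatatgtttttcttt
SKIP, chr3R:22260836-22260876, plus strand: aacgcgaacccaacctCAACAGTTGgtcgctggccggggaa
CG17839, chr3L:14833578-14833618, plus strand: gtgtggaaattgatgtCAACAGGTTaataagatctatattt
Zdhhc8, chrX:9343915-9343955, plus strand: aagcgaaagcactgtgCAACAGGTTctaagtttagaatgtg
Tet, chr3L:2849796-2849836, minus strand: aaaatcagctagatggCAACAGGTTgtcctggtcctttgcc

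Whole summit windows of 2 members show the contrast between strong sites with and without such a word. The window of mamo, which encodes a zinc-finger factor, holds CAACAAGTG 6 bp from the summit, inside a longer run, and a further GCAACA read on the opposite strand (TGTTGC), all in capitals. The window of CG11050, the member of highest signal, holds none of the 4 words and no GCAACA. Its intron is only 140 bp long, so the window runs into the exons by 30 bases before it and 31 after it. Its capitals mark ACACTG, the 6-base word of largest odds ratio, which here is the last 6 bases of the preceding exon and not intron sequence. Each is printed on the strand of its gene, 100 bp on either side of the summit.
mamo, chrX:13890490-13890690, minus strand: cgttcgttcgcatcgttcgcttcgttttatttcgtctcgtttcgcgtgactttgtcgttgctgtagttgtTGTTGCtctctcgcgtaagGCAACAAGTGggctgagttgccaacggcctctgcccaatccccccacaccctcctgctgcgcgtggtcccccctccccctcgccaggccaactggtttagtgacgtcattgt
CG11050, chr2L:6612611-6612811, plus strand: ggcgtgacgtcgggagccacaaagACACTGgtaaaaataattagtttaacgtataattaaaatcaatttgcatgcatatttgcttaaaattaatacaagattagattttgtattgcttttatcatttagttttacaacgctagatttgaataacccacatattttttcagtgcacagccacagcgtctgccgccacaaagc

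The words were looked for on either strand in the 100 bp to each side of a summit, and in a paired window of equal length centred 1000 bp away. The paired windows stand for the surrounding DNA, although 110 of them overlapped an exon and 41 another optimal peak. CAACAGGTG was found at 15 summits (2.06%, Wilson 1.25 to 3.37) and in 1 paired window (0.137%), an odds ratio of 15.0 (95% interval 2.31 to 631, exact McNemar test, Benjamini-Hochberg adjusted p = 0.00571 over 11 words). The core E-box CAGGTG, which CAACAGGTG contains, was at 51 summits and in 51 paired windows (7.0% each). The odds ratio was 1.00 with an interval of 0.653 to 1.53. CAGCTG was present in 8.92% of summit and 9.47% of paired windows, an odds ratio of 0.935 (0.643 to 1.36). CAAGTG, contained in CAACAAGTG, was at 18.9% of summits against 14.5% of paired windows and missed the threshold of 0.05 in the exact test (adjusted p = 0.123). It passed with windows of 50 bp (odds ratio 1.67), with paired windows on the other side (1.49) and at 2000 bp (1.45), by exact tests with adjusted p = 0.0363, 0.0340 and 0.0481. CAGATG was at 5.21% against 8.09% (odds ratio 0.618, exact test, adjusted p = 0.123). In the leading peaks of replicate 3 alone it was called as less frequent (0.521, exact test, adjusted p = 0.00633), and in those of replicate 4 alone its odds ratio was 0.929. The call on CAACAGGTG did not hold in the leading peaks of replicate 4 alone, where the odds ratio was 5.50 (exact test, adjusted p = 0.124). In the peaks of replicate 3 alone it was 19.0 (exact test, adjusted p = 0.000441).

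Among CAACAGGTG and its 27 single-base variants, 4 words were more frequent at the summits and 0 were less frequent, the latter also at an unadjusted p under 0.05. CAACAAGTG was at 33 summits (4.53%, Wilson 3.24 to 6.29) and in 1 paired window (adjusted p = 1.14e-07 over 28 words, exact McNemar test). CAACAGTTG was at 18 summits against 3 paired windows (exact test, adjusted p = 0.0104), and CAACAGGTT at 14 against 1 (adjusted p = 0.00911). The 12 variants that altered the bases AACA within positions 2 to 5 were at no more than 3 summits each, in place of 15 for the unaltered word. Positions 4 and 5 are also the first bases of the core CAGGTG. Such low counts were not particular to AACA. The variants C1A, C1G and C1T were at 2, 1 and 3 summits, and G6C and T8G at 2 and 3. CAACAGCTG (G7C), at 10 summits against 2 paired windows, had an unadjusted p of 0.0386 and an adjusted p of 0.182. CAACAAGTG was called under all 11 alternative settings run. CAACAGTTG was called under 9 and CAACAGGTT under 8. In the leading peaks of replicate 4 alone only CAACAAGTG and the G7T word passed, which left 2 called words in place of 4. The odds ratio of CAACAGGTT there was 8.0, beside 14.0 in the optimal list.

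At least 1 of these 4 words was present at 79 member summits (10.8%) and in 6 paired windows (0.823%). Of 111296 windows of the same length that tile the whole later-intron territory, 0.832% held one. The words were chosen from these same windows, so the shares are a description. The share was 7.13% at first-intron peaks, 9.95% at intergenic peaks and 7.87% at promoter peaks. Copies gathered at the summit, which the choice of the words from these same windows favours, so this too is a description. Of 125 copies within 500 bp of a member summit, 70 (56.0%) lay within 50 bp, where an even spread would put 10%. GCAACA had 19.1% of its copies there, ACACTG 12.4% and CAGGTG 11.4%.

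**Figure D1:**
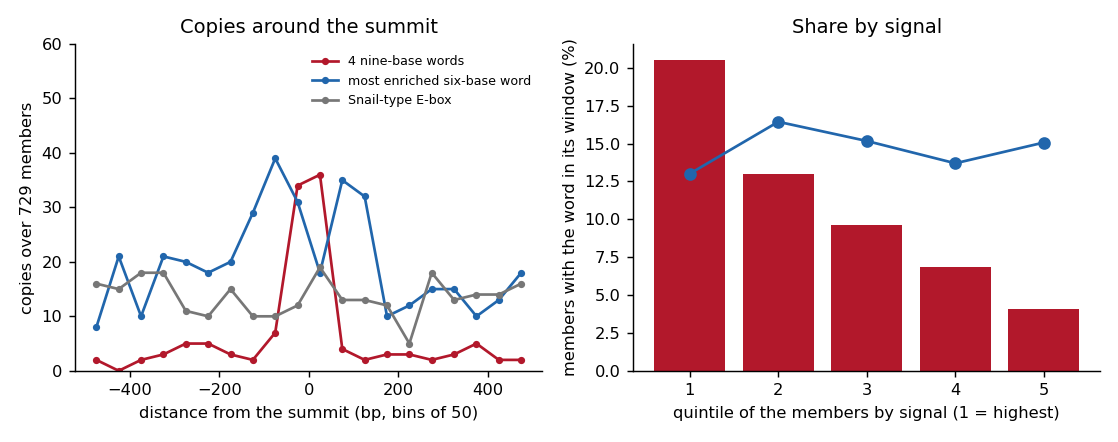
Left, copies over all 729 members by distance of the copy from the summit (bp, bins of 50) for the 4 nine-base words together (red), for ACACTG, the six-base word of largest odds ratio (blue), and for the Snail-type E-box CAGGTG (grey). Right, the share of members with a word in the summit window, by quintile of signal from the highest (1) to the lowest (5), for the 4 words (bars) and ACACTG (blue points): the bars fall from 20.5% to 4.11% and the points stay between 13% and 16.4%.

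The 4 words were most common at the strongest members. They were present at 20.5% of the quintile of highest signal (505.9 and above), then at 13%, 9.66% and 6.85%, and at 4.11% of the lowest quintile. The median signal was 406 (quartiles 294 to 660) at the 79 members with one of the words and 295 (227 to 421) at the other 650. GCAACA was at 44.5% of the highest quintile and at 26.7% to 32.2% of the others, while ACACTG ranged from 13% to 16.4% with no order. The median GC content of the windows was 44.0% in the highest quintile and 38.8% to 40.3% in the others, and its part in these shares was not tested. For CAACAGGTG alone the planned comparison did not reach the threshold. The 15 members with it exceeded the members' median signal in 60% of cases against 49.7% of the other 714 (odds ratio 1.52, Fisher's exact test, two-sided, p = 0.449). The odds ratio was 2.87 in the leading peaks of replicate 3 alone (exact p = 0.0604), 1.21 in those of replicate 4 alone (exact p = 0.772) and 3.62 in the optimal peaks above the median signal (exact p = 0.173).

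Over all 6-base words, reverse complements joined, 32 were more frequent at the summits than in the paired windows and 12 less frequent, 2.12% of the words tested (exact McNemar test, adjusted p under 0.05). With the 142 pairs left out whose paired window touched an exon or another optimal peak, the counts were 19 and 6. In the leading peaks of replicate 3 alone they were 20 and 9, and in those of replicate 4 alone 19 and 1. The word of largest odds ratio was ACACTG, at 14.7% of summits against 4.39% of paired windows (odds ratio 3.78, exact test, adjusted p = 1.30e-08). In the leading peaks of replicate 3 alone the odds ratio was 2.47. Of the tiles of the whole later-intron territory 7.26% held ACACTG, a larger share than of the paired windows. Its copies were fewer at the summit itself than between 50 and 150 bp from it, as the plot of copies around the summit shows. CAACAG, the first 6 bases of CAACAGGTG and CAACAGTTG, was at 29.2% against 11.2% (odds ratio 3.34, exact test, adjusted p = 2.36e-14). It was in 11.65% of the tiles, so the lead of ACACTG over it held against the paired windows only. ACAAGT, contained in CAACAAGTG, was at 22.9% against 9.88% (odds ratio 2.83, exact test, adjusted p = 1.12e-08), and AGCAAC at 25.9% against 13.3% (odds ratio 2.33). These 4 words were called under all 11 alternative settings.

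The other enriched words with the largest odds ratios were ACTGAG (3.31), TGCGCA (2.87), ACAGGT (2.37), CACTGA (2.35), GTGCAC (2.33) and ACAGTG (2.30). Of the 32 enriched words, 7 contained AACA on either strand, 7 contained ACTG and 5 contained GAGA, as did 2.31%, 2.31% and 2.26% of all words tested. Of the 12 depleted words, 1 (GTCTCA, read on the opposite strand) also contained GAGA. It is the core of the repeats bound by GAGA factor, and GAGAGA was at 15.8% of summits against 7.96%. The depleted words with the smallest odds ratios were CGGATC (0.182), AGCGCG (0.294), GTCTCA (0.294), ATCGGA (0.321) and AATCGG (0.409). For each of these 11 words the share of tiles lay between the paired and the summit share. The words thus differed less from the whole territory than from the paired windows. They were chosen by their contrast with these same paired windows, which favours this order, so it is a description. ACTGAG was in 6.06% of tiles, 3.98% of paired windows and 12.2% of summits, and CGGATC in 3.26%, 4.53% and 0.823%. The calls of these 11 words were less stable. ACTGAG was called under 8 of the 11 alternatives, CGGATC under 7, ACAGGT under 6, and both TGCGCA and AGCGCG under 2. In the leading peaks of replicate 3 alone TGCGCA had an odds ratio of 1.18 and GTCTCA one of 0.613. In those of replicate 4 alone they were 1.71 and 0.452, and ACTGAG had 2.14, GTGCAC 4.19, CGGATC 0.381 and ATCGGA 0.548.

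The summits of members and of first-intron peaks differed in few 6-base words. No word was more frequent in the members and 2 were less frequent, 0.0962% of those tested (Fisher's exact test, two-sided, adjusted over all words). At an unadjusted p under 0.05 there were 171 in either direction. The 2 words were AGCGCG, at 1.51% of members and 4.92% of first-intron peaks, and CTTTAC, at 3.57% and 8.52%. Neither direction held a called word in the leading peaks of replicate 4 alone. Against peaks within 500 bp of a coding TSS the difference was wide. There 125 words were more frequent in the members and 145 less frequent, 13% of those tested. Of the 145, 115 contained CG on either strand, compared with 3 of the 125. Of all words tested, 29.0% contained it. ATCGAT, part of the element bound by the promoter factor DREF, was at 3.29% of members and 12.8% of promoter peaks (odds ratio 0.233, exact test, adjusted p = 3.50e-13). TATCGA was at 5.35% and 16.6% (odds ratio 0.283).

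The 2 E-boxes CAGGTG and, separately, CAGCTG were compared with first-intron, intergenic and promoter peaks, as was the longer word CAACAGGTG, and 1 of 9 tests passed the threshold (Fisher's exact test). CAGCTG was at 8.92% of members and 16.8% of promoter peaks (odds ratio 0.484, exact test, adjusted p = 3.02e-07). CAACAGGTG was at 1.45% of first-intron, 2.36% of intergenic and 1.58% of promoter peaks, and the odds ratios of members against them were 1.42, 0.868 and 1.31 (exact tests, adjusted p = 0.752, 0.822 and 0.752). CAGGTG was at 7.13%, 7.59% and 8.01% of these classes beside 7.0% of members.

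Later introns were a sparsely bound territory. The bases that satisfy the rule amounted to 25.8 Mb, 19.2% of the 133.9 Mb of the chromosome arms counted, and held 28.3 members per Mb (Poisson 26.3 to 30.4). First introns, defined with the same distances, held 72.4 optimal peaks per Mb (68.7 to 76.2), intergenic sequence 26.9 (25 to 28.8) and coding promoters 186 (179 to 192). Among the 10000 pooled peaks of lowest signal, which lie below the optimal list, 21.4% were later-intron peaks, against 11.4% of optimal peaks (odds ratio 0.473, Fisher's exact test, two-sided, p = 1.94e-63). Peaks are not replicates of a condition, and this p describes these lists only. The direction was not particular to later introns. First-intron peaks made up 27.65% of the lowest and 22.5% of the optimal peaks, and intergenic peaks 26.1% and 12.5%. Promoter peaks went the other way, with 12.6% and 44.4%.

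**Figure D2:**
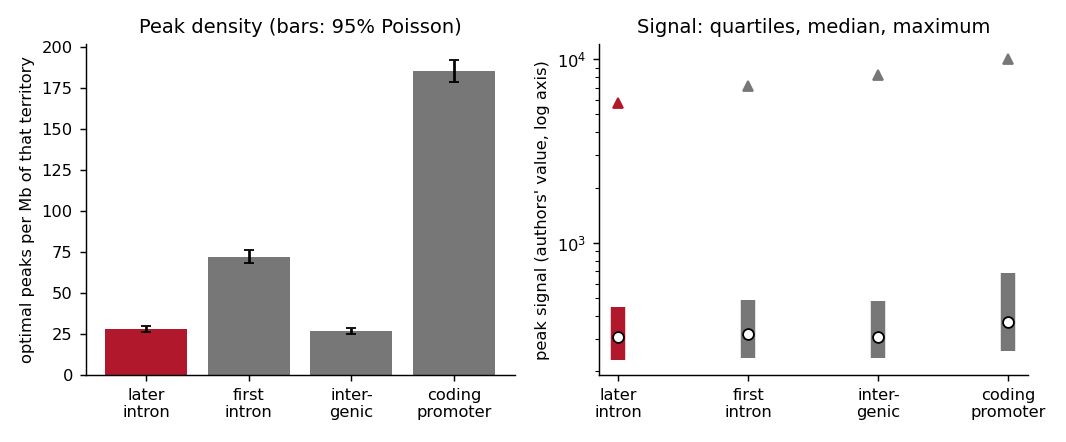
Left, optimal peaks per Mb of the territory of each class, with exact 95% Poisson intervals: later introns hold 28.3 and first introns 72.4. Right, the authors' peak signal on a log axis (thick bar, quartiles; white point, median; triangle, maximum): the later-intron median of 307 is below the promoter median of 370.1.

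Most members were peaks of moderate strength. The signal, the authors' enrichment value for a peak, ran from 193 to 5797 with a median of 307 (quartiles 230 to 446). It exceeded the median of all optimal peaks in 43.1% of members, against 56.4% of promoter peaks (odds ratio 0.585, adjusted p = 5.06e-10 by Fisher's exact test). Against first-intron peaks (46.2%, odds ratio 0.881, adjusted p = 0.257) and intergenic peaks (44.5%, odds ratio 0.943, adjusted p = 0.571) no difference passed the threshold of the exact test. In the peaks of replicate 3 alone the odds ratio against first-intron peaks was 0.820 with an adjusted p of 0.0393. The 500 optimal peaks of highest signal included 25 members (3.43% of the members, beside 7.80% of all optimal peaks), and the highest 100 included 7. At the edge of the rule, the 10 members 501 to 600 bp from a coding TSS had a median signal of 566. The 152 promoter-class peaks at 401 to 500 bp that were in no exon had one of 364. These promoter-class peaks were not limited to later introns, so the groups differ in more than distance.

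Nearly all members had a counterpart in both replicate lists. A peak overlapping the member was in the replicate 3 list for 721 members, in the replicate 4 list for 726 and in both for 718. These lists hold 30000 peaks each, and the optimal list was chosen from them. Over the 718 members, signals in replicate 3 and replicate 4 had a Spearman correlation of 0.68, a value over peaks that share the same 2 libraries. Members leading in both replicates, that is overlapping the best peaks of each, as many as the optimal list holds, were 74.3%. The share was 79.6% for promoter peaks (odds ratio 0.744, adjusted p = 0.00851 by Fisher's exact test), 77.6% for first-intron peaks (adjusted p = 0.145) and 76.2% for intergenic peaks (adjusted p = 0.406). This measure describes strength as well as agreement. Of members in the highest quintile of signal 99.3% led in both, and of the lowest 20.5%. Members had lower signals than promoter peaks, and the test made no allowance for signal. The difference from promoters was lost when an overlap of at least 0.5 of the optimal peak was asked for (odds ratio 0.932, exact test, adjusted p = 0.691). It turned round among the optimal peaks above the median signal (odds ratio 3.12, exact test, adjusted p = 0.0520). Nearly all members of high signal led in both (99.3% and 98.6% in the highest and next quintile). That odds ratio thus rests on the few that did not.

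Members ranked higher in replicate 3 than in replicate 4 more often than the reverse. The better rank was in replicate 3 for 438 of the 718 (61.0%), against 53.0% of all optimal peaks, 51.7% of first-intron, 57.3% of intergenic and 50.4% of promoter peaks. The median rank of the members was 3356 in replicate 3 and 3890.5 in replicate 4. The best peaks of replicate 3, equal in number to the optimal list, overlapped 90.5% of the members and those of replicate 4 83.3%. This difference between the libraries was not tested, since each is a single sample. Neighbouring members shared 1 peak of a replicate list in some cases, 58 of them in replicate 3 and 54 in replicate 4.

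**Figure D3:**
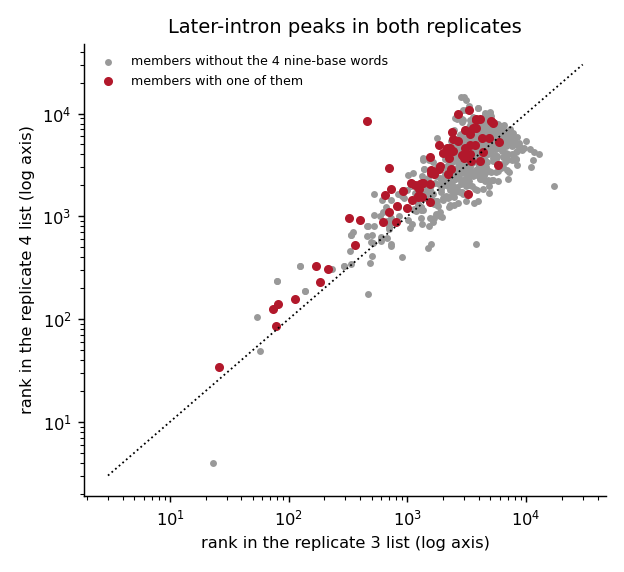
Rank of each of the 718 members found in both lists, replicate 3 on the x axis and replicate 4 on the y axis, both log axes; the dotted line marks equal ranks and a rank of 1 is the highest signal. Red points are members with 1 of the 4 nine-base words; 438 of all points lie above the line, with the better rank in replicate 3.

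The strongest members lay in genes of varied function. CG11050, rank 8 of all optimal peaks, carried the leading one (2L, 6612384 to 6612952) in an intron of only 140 bp, with a signal of 5797. Replicate 3 placed it at rank 23 and replicate 4 at rank 4. Dscam1, the immunoglobulin receptor of neurons with many spliced forms, had a member of signal 4481 in intron 6, 29516 bp from its nearest coding TSS (2R, 7352123 to 7352797, ranks 26 and 34). It held CAACAAGTG. Trl, which encodes GAGA factor, had a member of 3598 (3L, 14759312 to 14759760, ranks 57 and 49), and heph, the polypyrimidine-tract-binding protein, one of 3159 (3R, 31943867 to 31944334, ranks 54 and 105). Neither of those held any of the 4 words.

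The next 4 members all held CAACAAGTG. They lay in CG42337 (signal 3001, ranks 78 and 85), mamo (2805, ranks 74 and 126), CG31145 (2733, ranks 81 and 140) and CG46301 (2476, ranks 113 and 156). The word was thus in 5 of the 8 leading members and in 6 of the leading 20. The member in mamo lay 42753 bp from the nearest coding TSS and 51564 bp from the next optimal summit, so it stood alone in its intron of 15982 bp. Sytbeta, a synaptotagmin of the vesicle release machinery, followed with 2470 (ranks 79 and 233) and sick with 2222 (ranks 137 and 187).

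Signals of 2075 to 1377 completed the leading 20. They lay in Sec61alpha, the channel of the protein translocon (2075), JhI-21, an amino acid transporter (1954), and sr (1932, with CAACAGGTG). Kdm2, a histone lysine demethylase, carried 2 (1813 and 1377), prage 1 (1785, with CAACAGTTG), and Raf, the kinase above MEK in the ERK pathway, 1 (1686). The last were in a region shared by CG15717 and MFS10 (1538), in crp, a basic helix-loop-helix factor (1456), and in mtt, a relative of metabotropic glutamate receptors (1400). All 20 ranked within 483 in replicate 3 and within 456 in replicate 4, and 16 had the better rank in replicate 3. Of the 20, 8 held 1 of the 4 words, 11 held GCAACA and 2 held ACACTG. In 6 cases another optimal summit lay within 250 bp.

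Members were sparse next to exons and far from promoters. Within 100 bp of an exon there were 5.36 members per Mb (3.12 to 8.58), and at 500 to 1000 bp 42.7 (35.6 to 50.7). Beyond 5000 bp there were 20.9 (17.3 to 24.9). The 17 members within 100 bp of an exon had a median signal of 728, above the 268 of those beyond 5000 bp. By distance from the nearest coding TSS, the density was 48.5 per Mb at 500 to 1000 bp (35.9 to 64.2), where 49 members lay. It was level at 35.8, 36.7 and 36.5 in the bins from 1000 to 2000, to 5000 and to 10000 bp. Further out it was 27.6 at 10000 to 20000 bp and 13.1 beyond 20000 bp (10.7 to 16). The median signal was 445 in the nearest bin and 270 in the furthest. The median distance to a coding TSS was 6393 bp for members, 9657 bp for all bases of the territory and 8334 bp for later-intron peaks among the 10000 lowest. In introns under 1000 bp the density was 7.63 per Mb (5.03 to 11.1). It reached 43.8 (37.8 to 50.6) in introns of 10000 to 20000 bp and was 21.5 (17.7 to 25.9) in those over 50000 bp. All positions in short introns lie near an exon, so exon distance and intron length overlap as measures and were not told apart. The median intron was 15719 bp long.

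**Figure D4:**
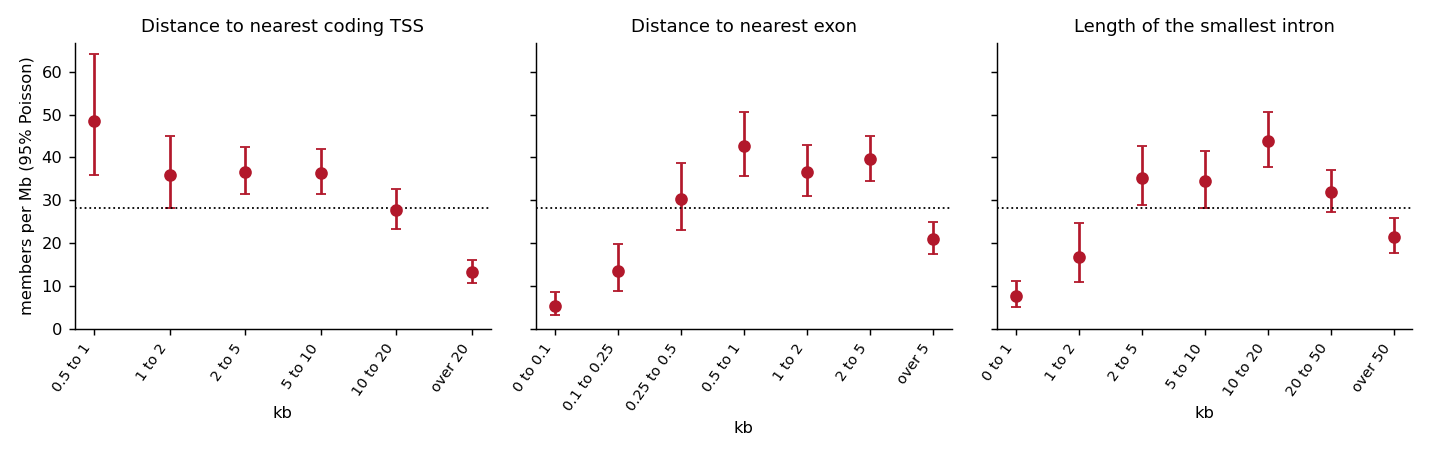
Members per Mb of later-intron territory (points, with exact 95% Poisson intervals) by distance to the nearest coding TSS, by distance to the nearest exon and by length of the smallest intron, all in kb; the dotted line is the density of the whole territory, 28.3 per Mb. Density is 5.36 within 0.1 kb of an exon and 13.1 beyond 20 kb of a coding TSS.

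In the transcript with the smallest intron around the summit, 437 members were in intron 2, 144 in intron 3 and 148 in intron 4 or a later one. The nearest coding TSS belonged to the host gene for 477 members (65.4%) and to another gene for the rest. The nearest other optimal summit was a median of 3813 bp away, and 149 members (20.4%) had one within 1000 bp. The median GC content was 39.8% in the summit windows, 40.3% in the paired windows and 40.8% over the territory. By chromosome, density was highest on the X (36.0 per Mb, 30.7 to 42.0) and on 2L (34.2, 28.6 to 40.6), and lay between 24.1 and 26.7 on the other large arms. The fourth chromosome held 1 member.

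The members lay in 394 host genes, 5.33% of the 7395 protein-coding genes that hold any later-intron territory. A host is any protein-coding gene whose body holds the summit, and 713 members had 1 host and 16 had several. Hosts had much of this territory: their median was 16930.5 bp, against 298 bp for all genes with territory. Of 5392 genes with up to 1000 bp of territory, 13 were hosts (0.241%). Single members were found in 227 hosts, 167 had at least 2 and 20 at least 5, so that 510 members (70.0%) shared a host with another member and are not independent of it. An optimal peak at a promoter was present in 242 hosts (61.4%) against 28.5% of genes with territory, and one in a first intron in 36.5% against 10.5%. In 109 hosts there was neither. Gene length differs between hosts and the others, and its part in these shares was not tested. The tagged gene scrt (FBgn0004880, 3L) has no bases of later-intron territory and so could not be a host.

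The 10 hosts with the most members held 85 of them (11.7%), with their signals spread over a wide range. CG1677 held 13 members of signal 195 to 740 within 69446 to 113753 bp of its 5′ end. kirre, an immunoglobulin adhesion protein of muscle founder cells, also held 13, of 194 to 758, spread over 46375 to 356809 bp of a gene of 394149 bp. CG1677 had 27.7 members per 100 kb of territory and kirre 4.96. mam, the Notch co-activator mastermind, held 9 (206 to 933), and Tet, the homologue of the TET DNA dioxygenases, 9 (200.4 to 689), 1 of which is the CAACAGGTT site printed above.

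In Raf 8 members (196 to 1686) lay within 2270 to 11130 bp of the 5′ end of a gene of 48405 bp, the highest density of these 10, at 35.9 per 100 kb. The remaining 5 were sick with 7 members, hth, a homeodomain factor, with 7, rdx, the adaptor that targets the Hedgehog effector Ci for degradation, with 7, SLO2, a potassium channel, with 6 and msn, a Ste20-type kinase, with 6. kirre and SLO2 had no optimal peak at a promoter or in a first intron, and the other 8 had one at a promoter. At most 2 members of each of these genes held any of the 4 words.

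**Figure D5:**
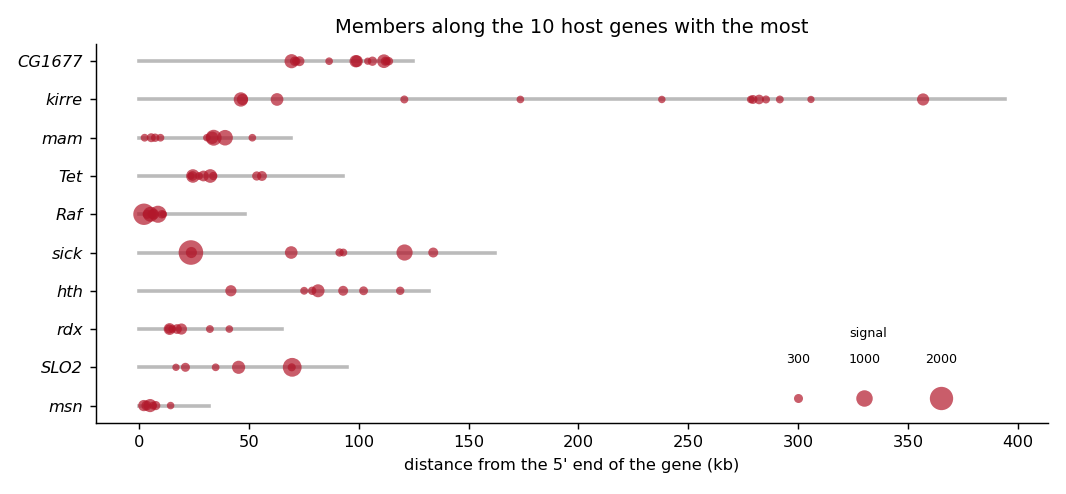
Position of each member along the 10 host genes with the most, as distance from the 5′ end of the gene in kb; the grey line is the length of the gene and the area of a point is proportional to the authors' signal. The members of Raf and msn lie near the 5′ end, those of CG1677 beyond the middle of the gene, and those of kirre over most of its length.

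Gene lists were set beside the density of all territory, which allows for the amount of territory but not for intron length. Density varied with intron length, from 7.63 per Mb under 1000 bp to 43.8 at 10000 to 20000 bp. Median territory per gene was 1965 bp for signalling and 19447.5 bp for axon guidance genes. The part of length was not tested. The intervals were not adjusted over the 13 lists, and members that share a host are not independent. In each of 3 lists, 1 name matched no gene and was left out of the counts. One of these was cut among the transcription factors, whose gene ct is a host with 1 member of signal 231. Neural and patterning transcription factors had 16 hosts among 53 genes with territory (30.2%) and 39 members, 56.1 per Mb (39.9 to 76.7), beside 28.3 overall. Their strongest members were in mamo (2805), CG12605, another Snail-family gene (1131), pdm2, a POU factor (973), and Eip93F, a steroid-response factor (861). grn, a GATA factor, and lola, a BTB factor, with 28639 and 26440 bp of territory, had none. Signalling genes had 8 hosts of 47 and 23 members, 64.5 per Mb (40.9 to 96.8). These included pnt, the ETS effector of the Ras pathway, with 5 members (up to 862), the receptor N with 1 (732), msn with 6 (642) and Pka-R2, a protein kinase A subunit, with 3 (543). dnc, a cyclic AMP phosphodiesterase, and InR, the insulin receptor, had none.

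RNA-binding regulators were hosts in 13 of 26 cases with 30 members, at 31.7 per Mb (21.4 to 45.2). heph held 5 (up to 3159), the translational repressor pum 4 (906), bru3 5 (628) and sm 2 (548), while bru1 and shep held none. Axon guidance and adhesion genes had 17 hosts of 42 and 49 members, 33.2 per Mb (24.6 to 43.9). Besides Dscam1 with 3 and kirre with 13, the teneurin Ten-a had 4 (up to 597) and the glypican dlp 1 (582). CadN and Ptp99A, with 93896 and 77331 bp of territory, had none. The Dpr, DIP, Beat and Side families of cell-surface recognition had 17 hosts of 53 and 22 members, 18.4 per Mb (11.5 to 27.8), led by DIP-theta (579), side (482), side-IV (438) and beat-IIIc (331). dpr21 and side-II had none.

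The densities for genes of neuronal excitability were all below the 28.3 of the whole territory. Their Poisson intervals included 28.3 except for the neuropeptide receptors, whose density rests on 1 member and a median territory of 3494 bp per gene. Ion channels had 5 hosts of 27 and 11 members, 22.8 per Mb (11.4 to 40.9), with Sh at up to 923, Elk at 495, Ca-beta at 352 and Ca-alpha1T at 286. The sodium channel para and the potassium channel eag had none. Transmitter receptors had 9 of 43 and 13 members (27.1 per Mb), led by nAChRalpha1 (483), nAChRalpha6 (313), Octbeta3R (300.5) and Dop1R2 (296), and 5-HT1A and 5-HT2B had none. Synaptic genes had 9 of 32 and 12 members (26.1 per Mb), led by Sytbeta (2470) and the vesicular transporters Vmat (954) and VGlut (806), then dlg1 (544). Snap25, with 165882 bp of territory, and Nlg4 had none. Of 35 neuropeptide receptors, ETHR alone was a host, with 1 member (321, 4.65 per Mb, 0.118 to 25.9), and RYa-R and MsR1 were not.

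Lists for other tissues had little territory. Muscle genes, with 0.166 Mb, had 4 hosts of 25 and 5 members, 30.1 per Mb (9.78 to 70.3), in Mef2 (1111), Msp300 (1074), Zasp52 (459) and nau (219), and none in if or bt. Of 17 glial genes, Eaat2 was a host with 1 member (1106), which gives 23.2 per Mb (0.587 to 129), and axo and Nrx-IV were not. None of the 16 genes of cytosolic ribosomal proteins with territory (RpL10 and RpL23 with the most) and none of 80 chemoreceptor genes (Ir41a and Ir92a with the most) was a host. Their territories total 0.00311 and 0.0303 Mb, too little to show a density below that of all territory.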

How the data were processed

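Peak lists of scrt-GFP chromatin immunoprecipitation on assembly dm6 were used as deposited: 30000 peaks each for replicate 3, replicate 4 and their pool, called against control per the file listings, and the optimal peaks made from them by the authors with IDR. The signal deposited for a peak is the authors' enrichment value, with a scale set within a list. The deposited −log10 q-value was not used. Aligner, peak caller, IDR threshold and depth: not given in the sources used. The age field holds no plausible value, and collection times come from the source description.

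Genes came from Ensembl release 115, in which 5809 entries are transposable elements that count as non-coding genes here, and sequence from the RefSeq Release 6 genome. Tests were Fisher's exact test and the exact McNemar test, with Benjamini-Hochberg adjustment within each family and a threshold of 0.05, checked on simulated data. A fixed seed drew the side of each paired window. The leading 20 members, the 10 hosts with the most members, up to 4 hosts and 2 other genes per list, and the 10 enriched and 5 depleted 6-base words of most extreme odds ratio were named, along with words these contain or that describe them. Other 6-base words and the shared runs of 4 bases were singled out after their values were seen. Printed sequences leave out members on 2R. The members and lists were chosen with earlier results of these data known. Both replicates form 1 group, and nothing states whether they came from separate collections. Python was version 3.11.15, with scipy 1.17.1 for the tests, numpy 2.4.6 and pandas 2.3.3, and matplotlib 3.10.9 drew the figures.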

Additional observations from a re-analysis of the deposited data

How the results depend on the processing

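Alternatives were the leading peaks of either replicate alone, the optimal peaks above the median signal (the strongest below), merged summits, a coding TSS distance of 1000 bp, other windows and pairs, 5000 lowest peaks, a stricter overlap and, chosen after seeing the data, an annotation without transposable elements. The lower signal than at promoters (odds ratios 0.494 to 0.622) and the lower share than among the lowest pooled peaks (0.400 to 0.542) held under each alternative run for them. Members numbered 677 to 784 in single replicates (26.3 to 30.4 per Mb) and 314 (12.2 per Mb, 220 hosts) in the strongest peaks. Without transposable elements there were 25.7 members per Mb. The odds ratio of signal against first-intron peaks was 0.820 to 0.843 in single replicates. Leading in both replicates had no single-replicate value. Among the strongest peaks its odds ratios turned to 1.90 (first intron), 1.10 (intergenic) and 3.12 (promoter), where few members did not lead in both. With an overlap of 0.5 of the peak it was 0.932 against promoters.

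CAACAGGTG had odds ratios of 5.50 to 19.0 in single replicates and 9.0 in the strongest peaks (exact test, adjusted p = 0.236). Over its 11 alternatives the adjusted p ran from 0.000441 to 0.236. Called words of the E-box family numbered 0 to 2 in single replicates, 0 in the strongest peaks, and 2 with windows of 50 bp, with the other side and with pairs at 2000 bp, where the added word was CAAGTG. In replicate 3 alone it was CAGATG, as less frequent. Called variants numbered 2 to 5 in single replicates and 1 in the strongest. Against paired windows CAGCTG was without a call throughout. Its odds ratio there passed to 1.03 at 50 bp, 1.15 at 200 bp and 1.37 on the other side, and was 0.884 to 1.21 in single replicates. Between classes, CAGGTG against first-intron peaks passed to 1.02 without transposable elements, CAGCTG against first-intron peaks to 1.15 at 50 bp and CAGCTG against intergenic peaks to 0.815 in the strongest.

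Enriched 6-base words numbered 19 to 20 in single replicates, 8 in the strongest peaks, 14 at 50 bp, 21 with pairs at 2000 bp and 19 with pairs free of exons and peaks. Depleted ones numbered 1 to 9, 0, 2 at 50 bp, 29 at 200 bp, 5 on the other side and 6 with free pairs. Against first-intron peaks, 0 to 1 were higher in single replicates, 1 without transposable elements and 8 at 200 bp, and 0 to 2 were lower in single replicates, 0 in the strongest, 0 at a TSS distance of 1000 bp, 0 at 50 bp and 7 at 200 bp. Against promoters, 7 were higher and 10 lower in the strongest, 67 and 94 at 1000 bp, 35 and 62 at 50 bp, and 266 and 245 at 200 bp. Of 165 values of the named 6-base words under alternatives, 165 kept their direction and 107 their call. The causes of these shifts were not tested. Fewer peaks entered the setting of the strongest.

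Depth is unknown, and with 2 libraries in all the spread between libraries is known only roughly. No comparison of conditions was possible because the replicates form a single group.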
